A study of Pomatostomus ruficeps with 28 samples.

Results

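CpG sites on short scaffolds were the 121849 sites of the deposited table that lay on a scaffold whose largest listed position was below 10000 bases. They made up 7.79% of all 1564780 sites, and their 11554 scaffolds made up 50.9% of the 22694 scaffolds that held a site. They were compared with the 119633 sites on the 72 long scaffolds, whose largest listed position was 500000 or more. Scaffold sizes in bases below are this largest listed position, since the true scaffold lengths were not used. Methylation was measured by enzymatic methyl-seq, in which enzymes convert unmethylated cytosines before sequencing, in blood of 28 wild chestnut-crowned babbler nestlings aged 14 to 20 days, with 1 library per nestling. Of these, 19 were raised by groups (parents with at least 1 helper) and 9 by pairs (parents alone). All had hatched in an incubator and were returned to their own nest or to an unrelated one. Carer number varied naturally and was not assigned. The nestlings carried 19 natal group codes, 16 of them shared a code with another nestling, and 1 code occurred in both carer classes, so the nestlings were not all independent.

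In vertebrates most CpG cytosines carry a methyl group, which is copied onto the new strand when DNA is replicated, while CpG-rich stretches at many gene starts remain unmethylated. Bird red blood cells keep their nucleus, so that blood DNA comes largely from them. A scaffold is a stretch of genome that an assembler could join, and in draft assemblies repeated sequence is often left on short scaffolds. Neither the sequence nor the gene content of the scaffolds was analysed here, and neither was the cell make-up of the blood.

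A methylation level below is the percentage of reads at a site that were methylated in a nestling. The depth behind a level is the number of reads, which in 27 nestlings was recovered from the deposited coverage and percentage. A level was listed there from 5 reads upwards where these were methylated, but below 10 reads no site with mostly unmethylated reads could pass the authors' coverage filter. Levels of 14 or more reads passed that filter at any methylation. Which sites were listed still depended on it, because a site was kept only if enough nestlings of both carer classes had a level. The authors also removed sites of the highest coverage in each nestling and sites of little variation. Both removals may bear on levels at high depth, and the part of the highest coverage was not tested. Group nestling 79687 stood apart, since its lowest depth was 10 reads and its level on short scaffolds, 77.5%, was the lowest of all nestlings. Values without it are given where they change a result. The nestlings had between 629681 and 1496607 sites with a level each.

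Short scaffolds carried slightly less methylation than long ones and a larger share of weakly methylated sites. The mean level of a nestling on short scaffolds ranged from 77.5% to 85.5% (median 84.4%), and on long scaffolds from 81.0% to 88.6% (median 85.5%). The ranges overlapped between the scaffold classes, but 27 of 28 nestlings were lower on short scaffolds, and the exception was a pair nestling. The means were 83.7% ± 1.67 and 85.1% ± 1.96 (SD, n = 28), a difference of -1.38 ± 0.921 percentage points (permutation test by sign flips within nestlings, two-sided, 100000 resamples, adjusted p = 1.5e-05 over 6 measures, from the smallest p the resamples can give). The test measures agreement between nestlings over the same sites, and the spread between scaffolds does not enter it. The direction of this small difference depended on which short scaffolds were counted. Without the sites that had more than 2 times the median number of reads it was 0.460 ± 0.621 points (permutation test, adjusted p = 0.001008, higher on short scaffolds in 22 of 28 nestlings). Among values of 14 or more reads at the sites so kept it was -4.43 ± 2.20 points, with 74.8% against 79.3% (permutation test, adjusted p = 1.5e-05, higher on short scaffolds in 1 of 28 nestlings). Without scaffolds whose largest listed position was below 1000 it was 0.212 ± 0.680 points (permutation test, adjusted p = 0.133). Its size varied as well, at -4.93 points with values weighted by reads and -12.4 points in sites present in all 28 nestlings.

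The low end of the distribution differed more. Levels of 20% or less made up 0.785% to 1.90% of a nestling's values on short scaffolds (median 0.965%), against 0.0395% to 0.339% on long scaffolds (median 0.102%). The ranges did not overlap, and all 28 nestlings had the higher share on short scaffolds, by a median of 8.99 times (permutation test, adjusted p = 1.5e-05). Without sites over 2 times the median reads the mean shares were 0.431% and 0.111%. Below 10 reads the coverage filter let no value of 20% or less through, so read depth bears on all these shares. Among values of 14 or more reads, which passed the filter at any methylation, the mean shares were 4.27% and 0.590%. They were higher on short scaffolds in all 28 nestlings (permutation test, adjusted p = 1e-05). Depth was still unlike there, with means of 21.4 reads on short and 16.0 on long scaffolds. The filter still bore on which sites were listed, and the test cannot separate that part. Fully methylated values were also more frequent on short scaffolds, at 31.0% ± 6.60 against 29.5% ± 7.75 (SD, n = 28). That difference of 1.47 points held in 21 of 28 nestlings (permutation test, adjusted p = 0.002592), and among values of 14 or more reads it was reversed, at -3.27 points. The median site on short scaffolds had a level of 87.7% and on long scaffolds 86.3%, the opposite order to the means.

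**Figure D1:**
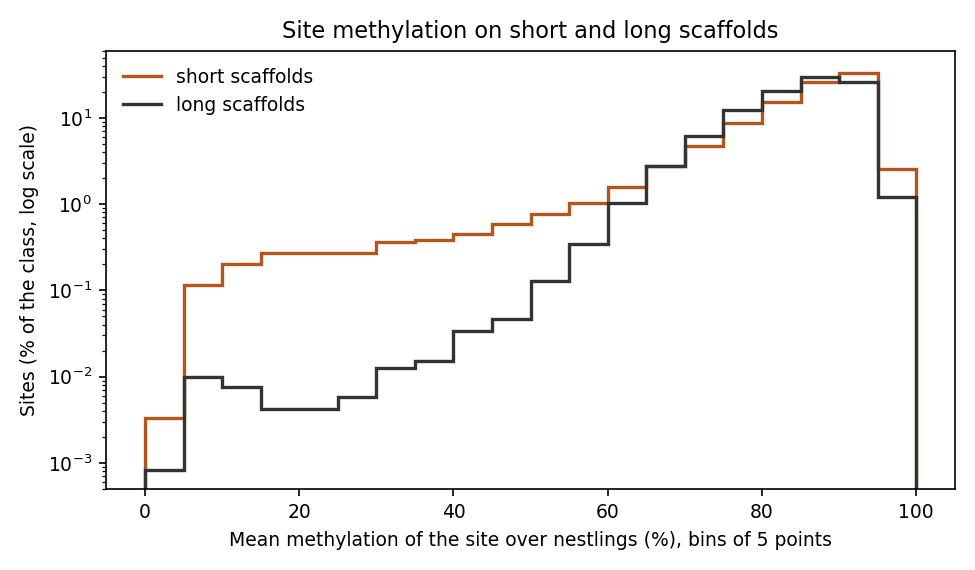
Share of sites (% of the scaffold class, log scale) in bins of 5 percentage points of the site's mean methylation over nestlings, for short and long scaffolds. Below 50% the curve of short scaffolds lies above that of long scaffolds, and the sites there make up 2.92% and 0.140% of their class.

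Sites with a mean below 50% numbered 3561 on short scaffolds, 2.92% of the class, and 167 on long scaffolds, 0.140%. Of these, 721 short-scaffold sites on 251 scaffolds and 27 long-scaffold sites on 19 scaffolds had a mean below 20%. Of all sites 1253 had a mean below 20%, and short scaffolds held 57.5% of these. Sites of 20% to below 50% made up 2.33% of the short class and 0.117% of the long class. At the top of the range the shares were closer. Sites of 80% to below 90% made up 41.4% of the short class and 49.8% of the long class, and sites of 90% or more made up 36.1% and 27.4%. All these are shares of the listed sites, from which the authors had removed sites of little variation. The coverage filter also kept mostly unmethylated values of few reads out of both classes. It need not have acted alike on both, since sites of 20 or more mean reads made up 5.04% of the short and 0.138% of the long class. Its part in these shares was not tested.

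Sites on short scaffolds were read more deeply. Mean reads per value ranged over nestlings from 9.20 to 16.0 (median 10.4) on short scaffolds and from 7.21 to 13.5 (median 9.04) on long scaffolds. All 28 nestlings had more reads on short scaffolds, by ratios of 1.08 to 1.28, and the mean difference was 1.59 ± 0.555 reads (SD, n = 28, permutation test, adjusted p = 1.5e-05). Without sites over 2 times the median reads it was 0.343 ± 0.361 reads. The median site had 9.47 reads on short and 9.59 on long scaffolds, while the 99th percentile was 36.7 reads against 13. On short scaffolds 6147 sites on 963 scaffolds had a mean of 20 reads or more, 5.04% of the class, against 165 sites, 0.138%, on long scaffolds. Short scaffolds thereby held 50.7% of the 12131 sites of that depth in the whole table.

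**Figure D2:**
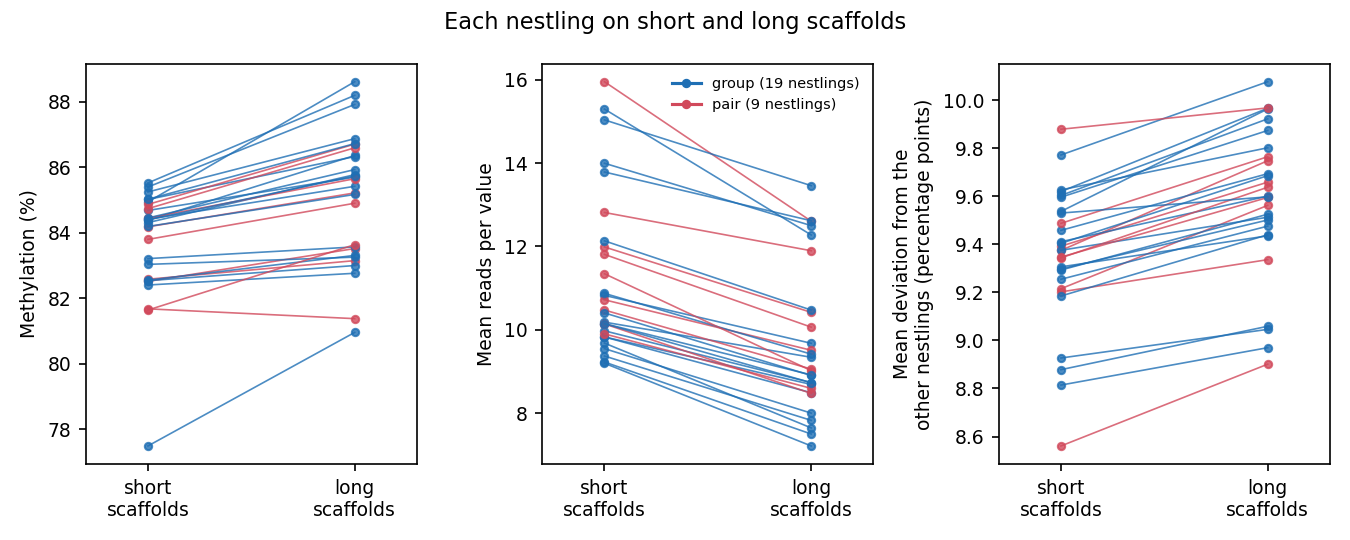
Each line joins the values of 1 nestling on short and on long scaffolds: mean methylation (%), mean reads per value, and mean absolute deviation from the other nestlings (percentage points), with group nestlings in blue and pair nestlings in red. Methylation is lower on short scaffolds in 27 of 28 nestlings, reads are higher in 28 of 28 and deviation is lower in 28 of 28.

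Deeply read sites had lower levels in the mean, although most of them were not weakly methylated. Of the 6147 short-scaffold sites of 20 or more mean reads 33.7% had a mean below 50% (median 62.4%), and 383 of the 721 short-scaffold sites with a mean below 20% had that depth. Short-scaffold sites of 20 or more mean reads had levels of 55.2% to 60.2% over nestlings (median 58.0%), and the other short-scaffold sites 79.96% to 87.8% (median 86.0%). These ranges did not overlap, and the difference was -27.3 ± 1.34 points (SD, n = 28, permutation test, adjusted p = 1.33e-05 over 4 comparisons). On long scaffolds the few sites of that depth had a similar mean of 60.7% ± 2.58. Short-scaffold sites of 20 or more reads differed from these by -2.63 ± 2.42 points and were lower in 25 of 28 nestlings (permutation test, adjusted p = 1.33e-05). Below 20 mean reads the order was the opposite, with 85.4% ± 1.72 on short and 85.1% ± 1.97 on long scaffolds (difference 0.262 points, higher in 19 of 28 nestlings, permutation test, adjusted p = 0.0404). Sites below 20 mean reads include values below 10 reads, where the coverage filter let no mostly unmethylated value through. The filter thus fixes part of each comparison with these sites, and the tests cannot separate that part. The authors had also removed sites of little variation, which bears on deeply read sites of high methylation. Of the 8723 short-scaffold sites where at least 18 nestlings had 14 or more reads, 145 had a mean of 90% or more. Read sampling alone gave these 145 a mean SD of 6.26 points, against 9.55 points for those of 50% to below 80%. The tests cannot separate the part of this removal either. The part of read depth in the level was not tested apart from these strata.

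Levels were also compared at the same number of reads. Below 10 reads the coverage filter let only values of at least 5 methylated reads through, so that the order of the classes there is given as a description. Values of 6 to 7 reads were at 90.3% ± 0.421 on short and 89.3% ± 0.404 on long scaffolds, higher on short scaffolds in all 27 nestlings that had such values. Values of 8 to 9 reads were also higher on short scaffolds in all 27, by 1.59 ± 0.378 points. From 10 to 13 reads, where the filter still depended on methylation, the difference was 0.0633 ± 1.62 points. From 14 to 19 reads it was -5.89 ± 3.66 points, from 20 to 29 reads -6.09 ± 3.79 points and from 30 reads upwards -3.34 ± 4.33 points (SD, n = 28). The permutation tests from 14 reads upwards gave adjusted p-values of at most 3.6e-05 over 6 depths. Over all values of 14 or more reads, levels were 69.0% on short and 78.3% on long scaffolds, and the difference of -9.27 ± 3.11 points held in all 28 nestlings (permutation test, adjusted p = 1e-05). These values had means of 21.4 reads on short and 16.0 on long scaffolds, so this difference is not at the same number of reads. The coverage filter and the removal of sites of little variation bore on which sites were listed at all depths. These tests cannot separate that part.

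**Figure D3:**
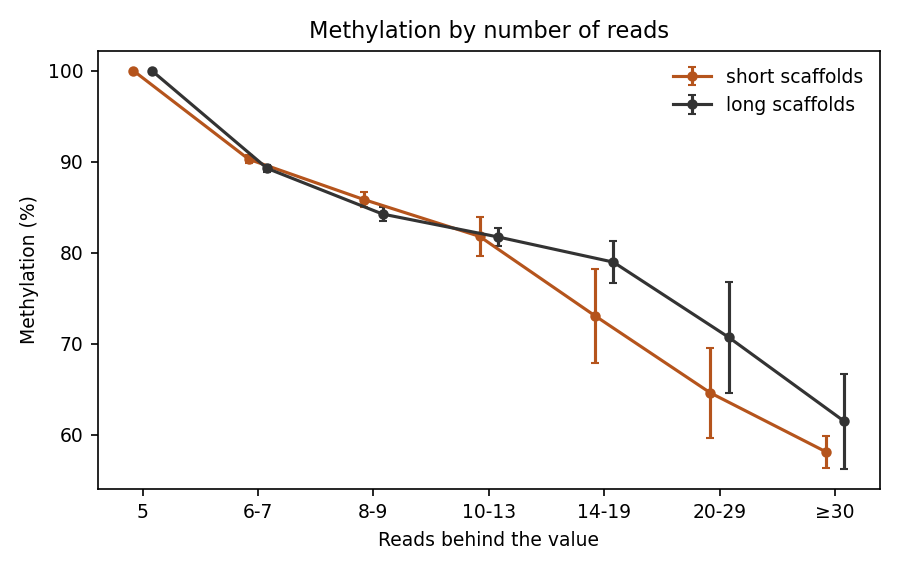
Mean methylation (%) of values by the number of reads behind them on short and long scaffolds (points are means and bars SDs over nestlings, 27 nestlings up to 9 reads and 28 above). Short scaffolds are higher at 6 to 9 reads and lower from 14 reads upwards. Values of 5 reads are all at 100%, because no other level passed the coverage filter at that depth.

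Within the short scaffolds, level and depth changed with the largest listed position. The 26752 sites on 4597 scaffolds below 1000 bases were at 78.4% ± 1.57 with 14.4 ± 2.31 reads (SD, n = 28). They were lower than long scaffolds in all 28 nestlings, with a difference of -6.68 ± 1.35 points (permutation test, adjusted p = 1.2e-05 over 12 tests). Scaffolds of 1000 to below 2000 bases were at 82.3% ± 1.62, lower in all 28 nestlings, with a difference of -2.77 ± 0.905 points (permutation test, adjusted p = 1.2e-05). For 2000 to below 5000 bases the level was 85.2% ± 1.68, and the difference from long scaffolds was 0.116 ± 0.769 points (permutation test, adjusted p = 0.433). The 47480 sites on scaffolds of 5000 to below 10000 bases were at 86.4% ± 1.73, higher than long scaffolds in all 28 nestlings by 1.29 ± 0.527 points (permutation test, adjusted p = 1.2e-05), and their reads did not pass the test (9.76 against 9.64, adjusted p = 0.0714). The short scaffolds with the lowest and the highest largest positions thus departed from long scaffolds in opposite directions. The share of sites with a mean below 50% was 7.70%, 3.78%, 1.66% and 0.809% in these position classes, and the share with 20 or more mean reads 15.3%, 5.09%, 2.32% and 1.11%.

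Around the limit of 10000 bases the values were close. Sites on the 386 scaffolds of 9000 to below 10000 bases had a mean of 86.6% and 9.59 reads, and sites on the 432 scaffolds of 10000 to below 11000 bases 86.1% and 9.73 reads.

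**Figure D4:**
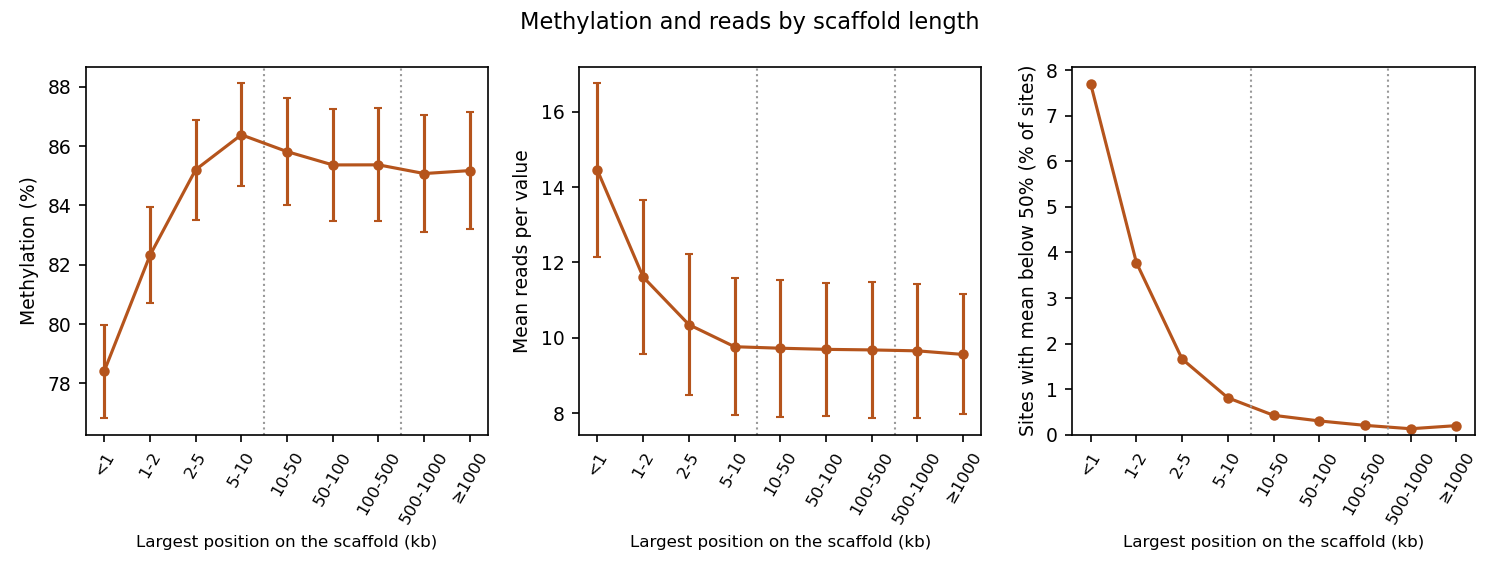
Mean methylation (%), mean reads per value and share of sites with a mean below 50%, by the largest listed position of the scaffold in kb (points are means over 28 nestlings with SD bars in the first and middle panels, and a share of sites in the last). Dotted lines mark the limits of the short and the long class. Below 1 kb methylation is at 78.4% with 14.4 reads, and from 5 to 10 kb at 86.4% with 9.76 reads.

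Short scaffolds held 3.90 sites per kb of listed span and long scaffolds 2.34. The rule fixes part of this value, because the span was taken up to the last listed site, and it was 11.8 sites per kb below 1000 bases and 2.76 from 5000 to below 10000 bases. It is therefore given with no test. A measure less bound to the span was the distance to the nearest listed site, with a median of 5 bases in both classes. A neighbour within 50 bases was listed for 87.5% of short-scaffold and 82.2% of long-scaffold sites. Sites were unevenly spread over the scaffolds. The median short scaffold held 4 sites, 2912 short scaffolds (25.2%) held 1 site, and the 3226 with at least 10 sites held 79.2% of all short-scaffold sites.

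Sites with a neighbour at a distance of 1 base made up 37.6% of the short and 40.8% of the long class. That is the distance between the cytosines of the opposite strands of a CpG, although the methods describe collapsed strands. Whether such neighbours are strands of the same CpG was not tested, as no sequence was used. Among all sites, runs of 3 adjacent positions were counted 14806 times. With only the first site of each run of adjacent positions kept, the difference in level shrank to -0.364 ± 0.891 points (permutation test, adjusted p = 0.0468, lower in 20 of 28 nestlings).

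Neighbouring sites resembled each other in level. Across the 23568 pairs of short-scaffold sites at a distance of 1 base the site means had a correlation of 0.925, and across 24904 such pairs on long scaffolds 0.700. At more than 200 and up to 1000 bases the correlations were 0.478 over 5819 pairs and 0.176 over 12632 pairs. The site means also had a wider range on short scaffolds, and the mean absolute difference between neighbours at those distances was 7.37 points on short and 7.46 points on long scaffolds. Reads of such neighbours had a correlation of 0.707 on short and 0.188 on long scaffolds. These pairs share libraries, reads and scaffolds, and the correlations are descriptions.

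Whole short scaffolds had a wider range of levels than windows on long scaffolds. The units were not of like size, since the listed span of each short scaffold was shorter than a window of 10000 bases. The part of size in the spread was not tested. Among the 3226 short scaffolds with at least 10 sites the scaffold mean ran from 10.3% to 94.3% (median 86.5%, 5th percentile 64.1%, SD 10.1 points). Among 2944 windows of 10000 bases on long scaffolds with at least 10 sites it ran from 39.4% to 92.8% (median 84.6%, 5th percentile 78.6%, SD 3.47 points). A mean below 50% was found for 57 short scaffolds and 1 window. Scaffold mean and scaffold reads had a correlation of -0.761 over the 3226 short scaffolds and -0.624 over the windows, given as descriptions since all points come from the same libraries. The coverage filter kept mostly unmethylated values of few reads out. The removal of sites of little variation bears on deeply read sites of high methylation. Part of these correlations, and of the levels by reads that follow, was therefore fixed in advance. The 198 short scaffolds with 20 or more reads had a mean level of 62.7% and the others 84.9%.

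The scaffolds with the most sites were highly methylated. VYZT01043275.1 held 222 sites with a scaffold mean of 88.1% and 9.72 reads. Its level was 86.3% to 91.7% in group nestlings (median 88.9%, n = 18) and 85.3% to 89.1% in pair nestlings (median 86.7%, n = 9), so the carer classes overlapped. VYZT01019790.1 (217 sites) was at 91.8% and VYZT01024088.1 (213 sites) at 86.5%.

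The least methylated scaffolds were low in nearly all their sites. VYZT01064415.1 had 12 sites between positions 156 and 483, with a mean of 10.3%, site means of 6.97% to 20.9% and 19.7 reads. Its level was 1.39% to 27.7% in group nestlings (median 7.74%, n = 15) and 0.63% to 19.7% in pair nestlings (median 12.9%, n = 9). VYZT01009006.1 had 19 sites between positions 4859 and 5220 with a mean of 12.8%, and no nestling exceeded 20.2% there. At the other end, VYZT01055078.1 (14 sites) was at 94.3% with 8.02 reads and VYZT01021168.1 (14 sites) at 94.1% with 8.48 reads. The levels of the named scaffolds overlapped between carer classes throughout, and no test was made because the scaffolds were chosen by their values.

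The most deeply read scaffolds were weakly methylated. VYZT01003771.1 had 23 sites with 49.5 reads and a mean of 26.5%. Its level was 8.66% to 40.05% in group nestlings (median 27.4%, n = 19) and 18.8% to 36.2% in pair nestlings (median 27.8%, n = 9). VYZT01111177.1 had 10 sites with 46.6 reads and a mean of 32.9%. Both had deep reads in each nestling with a value, with at least 27.2 and 20.6 reads.

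Nestlings differed most on VYZT01081910.1, with an SD of 19.6 points between the nestlings' scaffold means, against a median of 3.91 points over the 3226 scaffolds. Its 23 sites lay between positions 64 and 165 and had 21.4 reads. Sites so close can share reads, and the 3226 scaffolds differ in span and number of sites. The SDs are therefore of unlike units, and the part of read sampling in them was not tested. Group nestlings ran from 5.49% to 65.4% (median 43.8%, n = 15) and pair nestlings from 6.58% to 68.1% (median 31.3%, n = 8), so that low and high nestlings occurred in both carer classes. Next was VYZT01043697.1 (11 sites, SD 15.4 points), where group nestling 79328 was at 28.3% and group nestling 79685 at 92.7%.

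**Figure D5:**
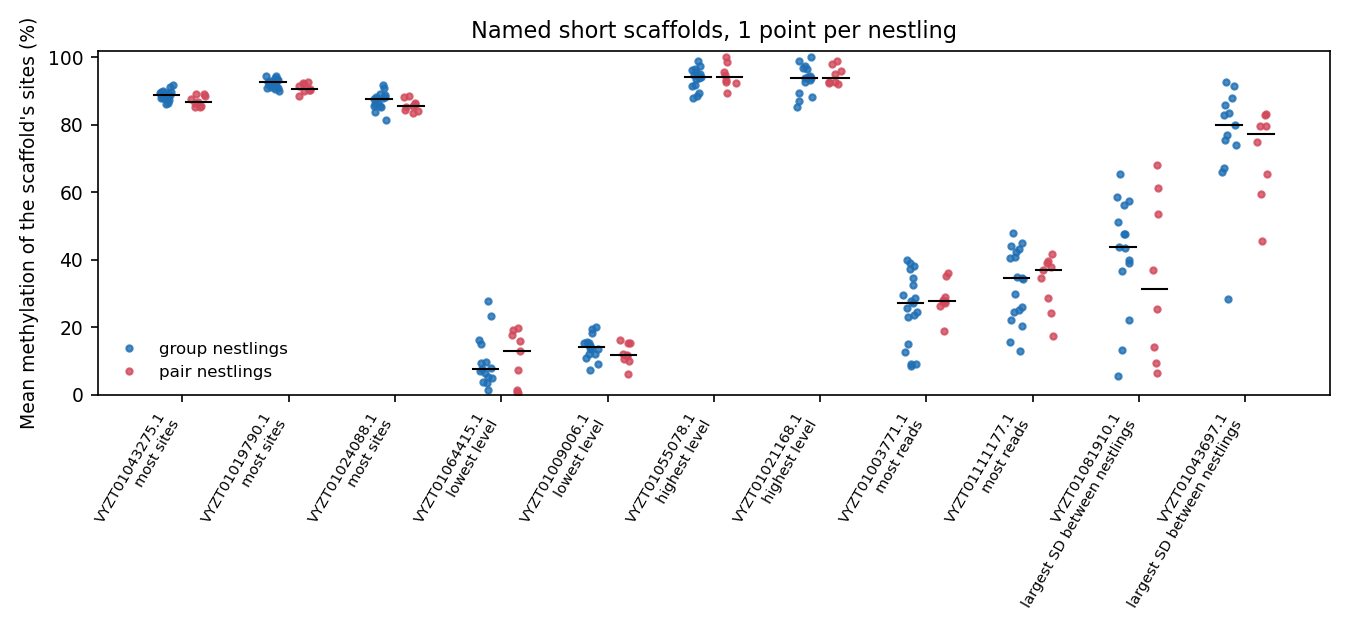
Mean methylation (%) of the named short scaffolds, with 1 point per nestling that had a level at no fewer than 50% of the scaffold's sites, in group (blue) and pair (red) nestlings, and bars at the medians. Carer classes overlap on each scaffold, and on VYZT01081910.1 nestlings run from 5.49% to 68.1%.

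Levels on short scaffolds varied slightly less between nestlings than levels on long ones. The mean absolute deviation of a value from the mean of the other nestlings at its site was 8.56 to 9.88 points on short scaffolds (median 9.37) and 8.90 to 10.1 points on long scaffolds (median 9.60). All 28 nestlings deviated less on short scaffolds, with a difference of -0.237 ± 0.0911 points (SD, n = 28, permutation test, adjusted p = 1.5e-05). With sites weighted to the same distribution of site means the difference was -0.263 points, again in 28 of 28 nestlings. Sites present in all 28 nestlings, 3188 on short and 224 on long scaffolds, gave the opposite order, with a deviation higher on short scaffolds by 0.451 ± 0.534 points in 23 of 28 nestlings (permutation test, adjusted p = 0.00018). Reads per value differ between the classes and bear on these deviations. Over all values of 14 or more reads the deviation was 9.05 points on short and 9.72 points on long scaffolds. That difference was -0.669 ± 0.381 points (permutation test, adjusted p = 1e-05, higher on short scaffolds in 1 of 28 nestlings). Where at least 18 nestlings had 14 or more reads, the mean SD between nestlings over all values was 11.1 points on short and 11.4 points on long scaffolds. With only the values of 14 or more reads at these sites it was 10.5 and 10.1 points, the opposite order. The variance there between nestlings was 1.42 times the variance that read sampling alone gives over 8723 short-scaffold sites and 1.20 times over 226 long-scaffold sites. These ratios are descriptions. The authors had removed sites of little variation, so the deviations are those of variable sites.

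The share of a class's sites that had a level in a nestling was 43.2% to 94.8% on short scaffolds (median 80.5%) and 40.6% to 95.9% on long scaffolds (median 80.3%). The difference was 1.24 ± 3.25 points, with 14 nestlings higher and 14 lower (permutation test, adjusted p = 0.044). It was 12.5 points in pair nestling 62618, and without that nestling the mean was 0.826 points (permutation test, adjusted p = 0.0894). It also missed the threshold without nestling 79687 (1.20 points, adjusted p = 0.0644) and without pair nestling 79676 (1.17 points, adjusted p = 0.0694, permutation tests). Sites present in all 28 nestlings made up 2.62% of the short and 0.187% of the long class, and short scaffolds held 41.2% of the 7729 such sites in the table.

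A nestling's level on short scaffolds followed its level on long scaffolds. Over the 28 nestlings Pearson's r was 0.884 and Spearman's rho 0.936 (permutation tests, adjusted p = 2e-05 for each over 2 relations, from the smallest p possible). Without the 2 nestlings farthest from the median on long scaffolds r was 0.926, and without nestling 79687 it was 0.937. Among values of 14 or more reads r was 0.777, and in sites present in all 28 nestlings 0.693. A nestling's depth bears on both levels through the coverage filter, and its part in the relation was not tested. The difference between the scaffold classes went with depth, in that nestlings with more reads on long scaffolds had a smaller deficit on short ones (r = 0.539, permutation test, adjusted p = 0.00322, and rho = 0.717, adjusted p = 4e-05). Without the 2 nestlings farthest from the median in reads r was 0.471. The difference contains the level on long scaffolds, which the coverage filter ties to the same reads. Part of this relation was therefore fixed in advance, and the tests cannot separate that part.

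The study compared nestlings raised by groups with those raised by pairs. On short scaffolds group nestlings had levels of 77.5%, 84.4% and 85.5% (lowest, median and highest of 19), and pair nestlings 81.6%, 83.8% and 84.9% (of 9). The classes overlapped over the whole range of the pairs. The means were 83.9% ± 1.83 and 83.4% ± 1.29, a difference of 0.470 points (permutation test of the carer labels, adjusted p = 0.522 over 2 tests). Without nestling 79687 it was 0.824 points (permutation test, adjusted p = 0.163). The difference between short and long scaffolds was -1.49 ± 0.999 points in group and -1.15 ± 0.722 points in pair nestlings. Its own test between the carer classes gave a difference of -0.348 points (permutation test, adjusted p = 0.522). For the other 5 measures the short-minus-long differences were likewise compared between carer classes, and the adjusted p was 0.897 for each (permutation tests). Among short-scaffold sites of 20 or more reads, levels were 58.3% ± 0.901 in group and 57.6% ± 1.35 in pair nestlings, with overlapping ranges.

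Site by site, few short-scaffold sites differed between carer classes. Each site was fitted with a beta regression on carers, age and natal group, and a call needed a Benjamini-Hochberg p no larger than 0.01 over all sites together with predicted means that differed by 25 percentage points or more. Of all 1556386 fitted sites 345 were called, or 0.0222%. On short scaffolds 16 of 120913 fitted sites were called, or 0.0132%, of which 13 were hypermethylated in group nestlings and 3 in pair nestlings (backgrounds of 0.0186% and 0.00353%). On long scaffolds it was 32 of 119095, or 0.0269%. The share on short scaffolds was thus no higher than the background, and the difference between the shares was not tested. The model could not be fitted at 936 short-scaffold sites.

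The calls depended on the natal group term. Without it 3 short-scaffold sites were called, or 0.00246%, against a background of 0.0016% (25 of 1564780 sites) and 0.00502% on long scaffolds. That short-scaffold share was above the background, and the difference was not tested. With limma on logit values none was called, where 5932 short-scaffold sites (4.87%) had an unadjusted p under 0.05 against 4.92% of all sites. In the beta regression with natal group that share was higher, at 8.9% of short-scaffold and 8.93% of all fitted sites. Without natal group it was 8.38% and 8.48%. With natal group but no limit on the predicted difference 716 short-scaffold sites were called (0.592% against a background of 0.584%), with a limit of 10 points 443 (0.366% against 0.383%), and with 25 points at an adjusted p of 0.05 21 sites (0.0174% against 0.0287%). Only 4 of the 16 called sites had raw carer means at least 25 points apart. The site with the smallest p, position 6555 of VYZT01042194.1, had 75% to 100% in group nestlings (median 100%) and 53.8% to 100% in pair nestlings (median 85.7%), with means of 95.02% ± 9.43 (n = 12) and 83.3% ± 17.2 (n = 7). The model predicted 95.6% and 56.9% (beta regression, adjusted p = 1.63e-41), and without natal group the predicted difference was 8.05 points (adjusted p = 0.643). Its carer classes overlapped, and its levels rested on 5 to 13 reads, where the coverage filter depended on methylation.

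The next sites by p were similar. Position 6104 of VYZT01032223.1 had means of 74.4% ± 14.97 (n = 12) and 54.8% ± 17.5 (n = 6) in group and pair nestlings, and predicted means of 77.1% and 48.6%. Position 822 of VYZT01012196.1 had 91.2% ± 10.5 (n = 13) and 84.0% ± 8.77 (n = 6), with 95.1% and 66.8% predicted. At position 1583 of VYZT01054655.1 the raw means, 78.1% ± 13.5 (n = 14) and 78.9% ± 8.75 (n = 7), ran against the predicted 88.6% and 56.7%. Position 4272 of VYZT01043806.1 had 87.4% ± 11.1 (n = 15) and 85.2% ± 14.7 (n = 7), with 95.1% and 53.5% predicted. The raw ranges of all these sites overlapped between the carer classes, and each site had levels of fewer than 10 reads, on which the coverage filter bears. Their adjusted p without natal group ran from 0.197 to 0.990.

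The 3 sites called with and without natal group, named after their values were seen, had raw differences as large as the predicted ones. Position 3591 of VYZT01051419.1 was at 16.7% to 53.3% in group nestlings (median 38.0%, n = 12) and at 0% to 15.4% in pair nestlings (median 0%, n = 7). The classes did not overlap, and each level rested on 11 to 45 reads. The means were 36.0% ± 11.8 and 6.05% ± 7.57 (beta regression, adjusted p = 5.07e-07 with and 2.42e-05 without natal group, adjusted p = 0.917 with limma). Position 9855 of VYZT01008150.1, the only site of its scaffold, was at 75% to 100% in group nestlings (median 100%, n = 12) and at 0% to 88.9% in pair nestlings (median 68.2%, n = 6). Position 1438 of VYZT01013350.1 was at 60% to 100% (median 100%, n = 16) and 0% to 100% (median 58.6%, n = 6). At these last sites group nestlings were near full methylation and the pair nestlings were scattered, so that the classes overlapped. Median reads in group and pair nestlings were 8 and 11 on VYZT01008150.1, and 10 and 11 on VYZT01013350.1, with a lowest depth of 5 at both. Below 10 reads the coverage filter let no mostly unmethylated value through. It therefore bears on these carer differences, and its part was not tested.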

How the data were processed

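Enzymatic methyl-seq was applied to blood DNA of 28 nestlings (19 group, 9 pair). The authors trimmed reads with HTStream and mapped them with Bismark (versions not given in the sources used here) to the chestnut-crowned babbler genome, removed sites of low and of extreme coverage, and kept sites present in both carer classes and variable between nestlings. The methods describe collapsed strands. Each deposited percent value is the methylated share of a nestling's reads at a site, with no normalisation between nestlings. The deposited counts comprise a coverage per value and, for nestling 79687 only, methylated and unmethylated reads. A further 7 columns of values were not used. Positions are those of the deposited table.

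In 27 nestlings every percentage was matched, within 1e-06, to whole reads by taking coverage as methylated reads counted 2 times plus unmethylated reads, with either term left out if under 10. With coverage shuffled 13.8% to 28.2% of values below 100% matched. The members and lists were chosen with earlier results of these data known, and this reading of the coverage was too.

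Each nestling gave its mean over short and over long scaffolds, and the within-nestling differences were tested by two-sided sign-flip permutation (100000 resamples, smallest p 1e-05, Benjamini-Hochberg within each family). Carer labels were permuted likewise. Because nestlings share natal groups, p-values over nestlings may be too small. The sign-flip p-values measure agreement between nestlings over the same sites and leave out the spread between scaffolds. A logit-link beta regression on carers and age with a natal group random intercept (Laplace) was run on 1564780 sites and could be fitted at 1556386. It was the study's model except that the natal group code stood for brood and cross-fostering status was not used. The fit was tested on simulated data without a natal group effect, and its carer term was within 0.01 of glmmTMB's at 16 of 16 called and 198 of 200 random sites. Standard errors were not compared, and neither check covers p-values where natal groups differ. Alternatives were limma on logit values, other scaffold limits, read minimums, site sets, weights and nestlings.

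Scaffolds were named by a rule: the 3 short scaffolds with most sites and, among those with at least 10 sites, the 2 with the lowest level, the highest level, the most reads and the largest SD between nestlings. A nestling's scaffold mean needed levels at 50% of the sites, an SD 18 nestlings and a deviation 6. Named sites were the first 5 called by p. The tools were R 4.3.3 (limma 3.58.1, glmmTMB 1.1.9) and Python 3.11.15 (numba 0.67.0, scipy 1.17.1, numpy 2.4.6). No genome or annotation was used here.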

Additional observations from a re-analysis of the deposited data

Results flagged for a closer look

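Pair nestling 62618 stood apart from the other 8 pair nestlings on 2 of the 12 values examined for such a nestling (Dixon's criterion, which chance meets in about 1 in 20 groups). It had 16.0 reads per value on short scaffolds, against 9.90 to 12.8 in the other pair nestlings. Its share of sites with a level was 12.5 points higher on short than on long scaffolds, against -1.84 to 3.19 points in the others.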

How the results depend on the processing

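For the carer comparison no paired analysis was possible because the nestlings carry ring numbers and no replicate number shared between the carer classes. The higher reads and the higher share of values at 20% or less on short scaffolds kept their direction and passed the test under all alternatives run for them, but without sites over 2 times the median reads the differences fell from 1.59 to 0.343 reads and from 0.873 to 0.320 points (0.431% against 0.111%). The lower level kept its direction and call in all but 2: it was 0.460 points without sites over 2 times the median reads and 0.212 points without scaffolds below 1000 bases. The cause was not tested. Elsewhere it ranged widely, with -12.4 points in sites present in all nestlings, -9.27 at 14 or more reads (-4.43 with the deeply read sites left out as well), -4.93 weighted by reads, -3.01 with a limit of 5000 bases, -0.385 with 20000 and -0.364 with 1 site per run. The share of values at 100% was reversed with a limit of 5000 bases (-0.866 points), against sites below position 10000 of long scaffolds (-0.539), at 14 or more reads (-3.27, and -1.47 with the deeply read sites left out as well) and in sites present in all nestlings (-19.6), and against scaffolds of 1000000 or more it was 0.934 points and no longer passed. The deviation between nestlings was reversed in sites present in all nestlings (0.451 points). The share of sites with a level was reversed in means of scaffold means (-1.48 points). It did not pass with a limit of 20000 bases (0.635), against scaffolds of 1000000 or more (1.75), without deeply read sites (0.392), without nestling 79687 (1.20), 79676 (1.17) or 62618 (0.826), per natal group (1.30), with 1 site per run (0.782) or without scaffolds below 1000 bases (0.405). The carer difference on short scaffolds turned to -1.98 points at 14 or more reads and to -1.19 with the deeply read sites left out as well, and the carer difference in short minus long level to 0.102 in deviations from the site mean, none past the test. Sites per kb were 5.31 with a limit of 5000 bases and 2.91 with 20000, and 1.78 on scaffolds of 1000000 or more and 1.77 in the first 10000 positions of long ones. Called short-scaffold sites, 16 in the fit reported, numbered 3 without natal group, 0 with limma, 716 without effect filter, 443 with 10 points and 21 at a false discovery rate of 0.05. With a limit of 5000 bases 6 of 73852 fitted sites were called, and with 20000 bases 36 of 215572. Both shares were below the 0.0222% over all sites (345 of 1556386), and the differences were not tested. The alternatives without nestling 62618, with 1 site per run, with at least 10 sites per scaffold, without scaffolds below 1000 bases and with both read limits were chosen after seeing the data. The median site had 9.47 reads per level on short and 9.59 on long scaffolds, and what that depth does to the number of calls was not tested.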

Other observations

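At the sites listed 1 base apart, levels of the same nestling were equal in 12.5% of 450182 short-scaffold comparisons and in 14.5% of 435464 long-scaffold comparisons. Reads were equal in 9.38% and 11.2%. The mean absolute difference in level between such sites was 11.8 points in both classes.

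Short-scaffold sites of 50 or more mean reads numbered 295 on 123 scaffolds, with a mean level of 41.2%, and 73.9% of them had a mean below 50%. On long scaffolds 3 sites had that depth.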
